A study of Mus musculus with 6 samples.

Results

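The genes described here are 38 enzymes, subunits and cofactors of sphingolipid and galactolipid metabolism, taken by symbol from a table of 54838 gene rows, in which all 38 were found once each. They divide by role into 23 genes of synthesis (14 that lead to ceramide, 3 for galactolipids, 2 for sphingomyelin and 4 for glucosylceramide and gangliosides), 11 genes of breakdown and 4 genes of control or transfer. RNA was sequenced from sciatic nerves of C57 Bl mice at postnatal day 3, with 3 wild-type (WT) libraries and 3 libraries of the genotype CnpCre Actl6afl/fl, called cKO here. The cKO mice carry floxed alleles of Actl6a, which encodes a subunit shared by several chromatin remodelling complexes, and a Cre recombinase named for Cnp, a gene active in myelinating glia. The Cre and flox status of the WT mice and the number of animals behind a library are not given in the labels, so the p-values reflect spread among these libraries, which may be partly technical.

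Sphingolipids are built on a sphingoid base that serine palmitoyltransferase makes from serine and a fatty acyl coenzyme A. The base is reduced, joined to a second fatty acid by a ceramide synthase and desaturated to ceramide, from which sphingomyelin, glucosylceramide with its gangliosides, or galactosylceramide is made. Galactosylceramide and its sulfated form, sulfatide, are abundant in the myelin that Schwann cells wrap around axons, and much of it carries a 2-hydroxylated fatty acid. Lysosomal enzymes take these lipids apart again, and inherited loss of some of them causes demyelinating disease.

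Total counts ran from 31404107 to 36760296 per library. Expression is given as CPM, the count of a gene scaled to its library with TMM factors, and SD values are over the 3 libraries of a group. Actl6a read 48.6, 53.3 and 46.2 in WT against 42.4, 47.6 and 41.5 CPM in cKO whole nerve, and was not called (log2 fold change -0.17, edgeR adjusted p = 0.243). Of 8 Schwann lineage markers, all detected in every library, 6 fell and 0 rose, and their sum took 2.21 to 2.54% of the counts in WT against 0.256 to 0.517% in cKO. In whole nerve, fewer Schwann cells and less RNA per Schwann cell cannot be told apart. Replicate 2 of cKO stood apart, with 5.85% of its counts in 10 skeletal muscle markers against 0.356 to 0.559% in the other libraries, and the results that rest on it are given with and without it. Of 7 erythroid markers 4 rose, and their sum was 0.271 to 0.396% of counts in WT, 0.722 and 0.779% in cKO replicates 3 and 2, and 2.29% in cKO replicate 1.

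In cKO nerve 8 of 21 tested synthesis genes had lower transcript levels, while 1 of 11 breakdown genes was lower. Among the 8 were 2 of 3 genes for galactolipids, 3 of 6 ceramide synthases and 2 of 3 tested genes of serine palmitoyltransferase. Of the 36 members that passed the filter on low counts, 10 fell and 1 rose (edgeR quasi-likelihood test, adjusted p below 0.05 over 18775 genes), where 10.3% of all genes tested fell and 8.55% rose. The 8 synthesis genes are 38.1% of those tested, and 0 rose, although 4 were higher at an unadjusted p below 0.05 and DESeq2 called 1 of them. On the breakdown side 1 gene rose. The difference between the sides was not tested. The median log2 fold change was -0.52 over the synthesis genes and -0.06 over the breakdown genes, against 0.04 over all genes tested.

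By library, the median log2 ratio of the synthesis genes to the WT mean was -0.42, -0.52 and -0.54 in cKO replicates 1, 2 and 3, and lay between -0.01 and 0.02 in the WT libraries. For the breakdown genes it was 0.03, -0.30 and 0.03, so the cKO value below 0 came from replicate 2 alone. Without cKO replicate 2 the median of the breakdown genes was 0.0071 and 16 members fell and 5 rose, in a fit in which 17.6% of all genes fell and 17.8% rose. All 10 members that fell in the full set were among the 16, and 13 of the 16 were synthesis genes; 3 other synthesis genes rose. Groups that did not overlap in CPM were seen for 19 of the 36 members, 14 of them lower and 5 higher in cKO, against 21.7% lower and 21% higher among all genes.

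**Figure D1:**
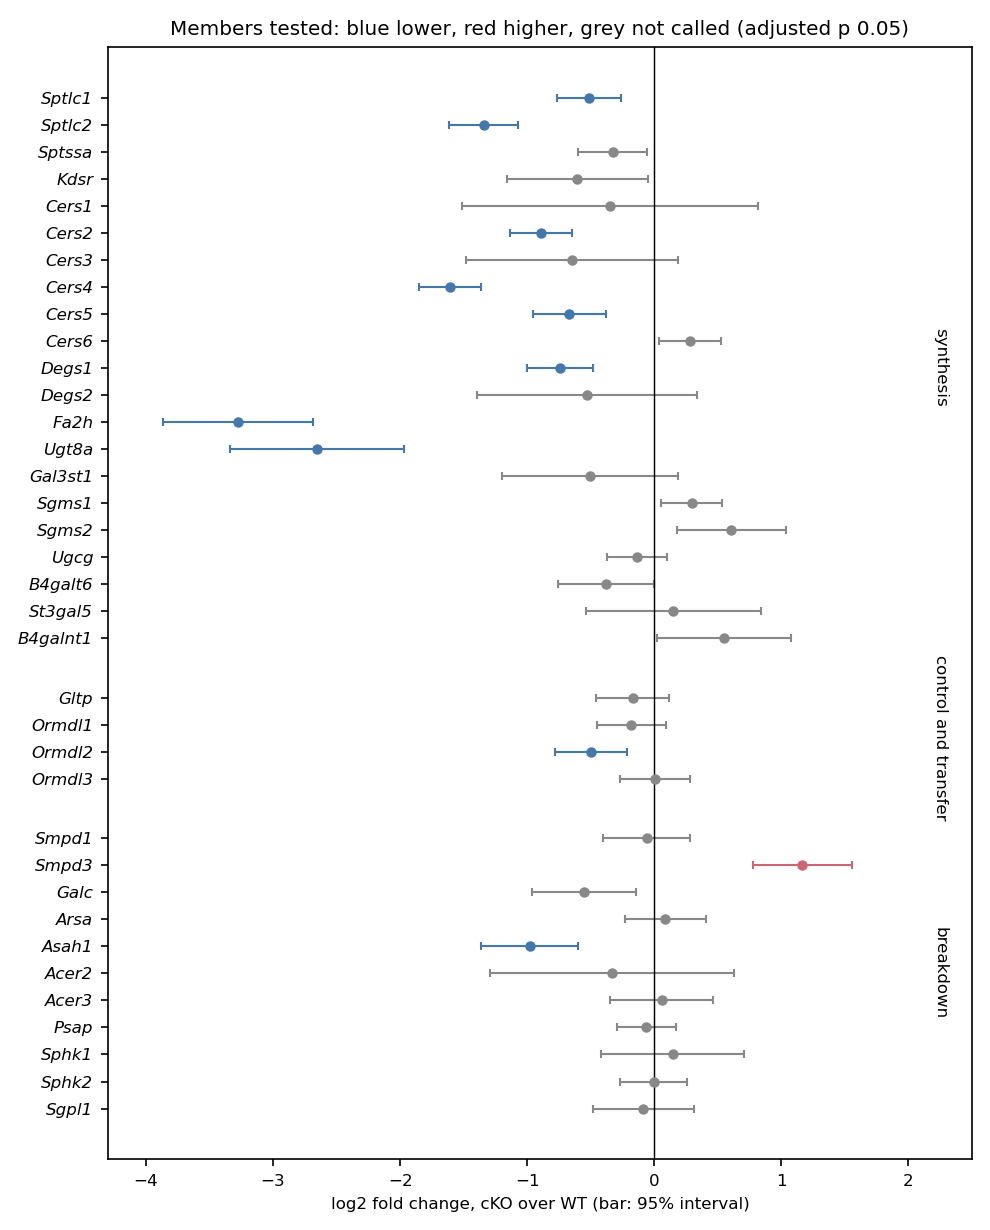
Log2 fold change of cKO over WT (horizontal axis) for the 36 members tested, with 95% intervals, ordered by role. Blue points fell and the red point rose; Fa2h and Ugt8a lie farthest to the left, at -3.27 and -2.65, and Smpd3 is the 1 member that rose.

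**Figure D2:**
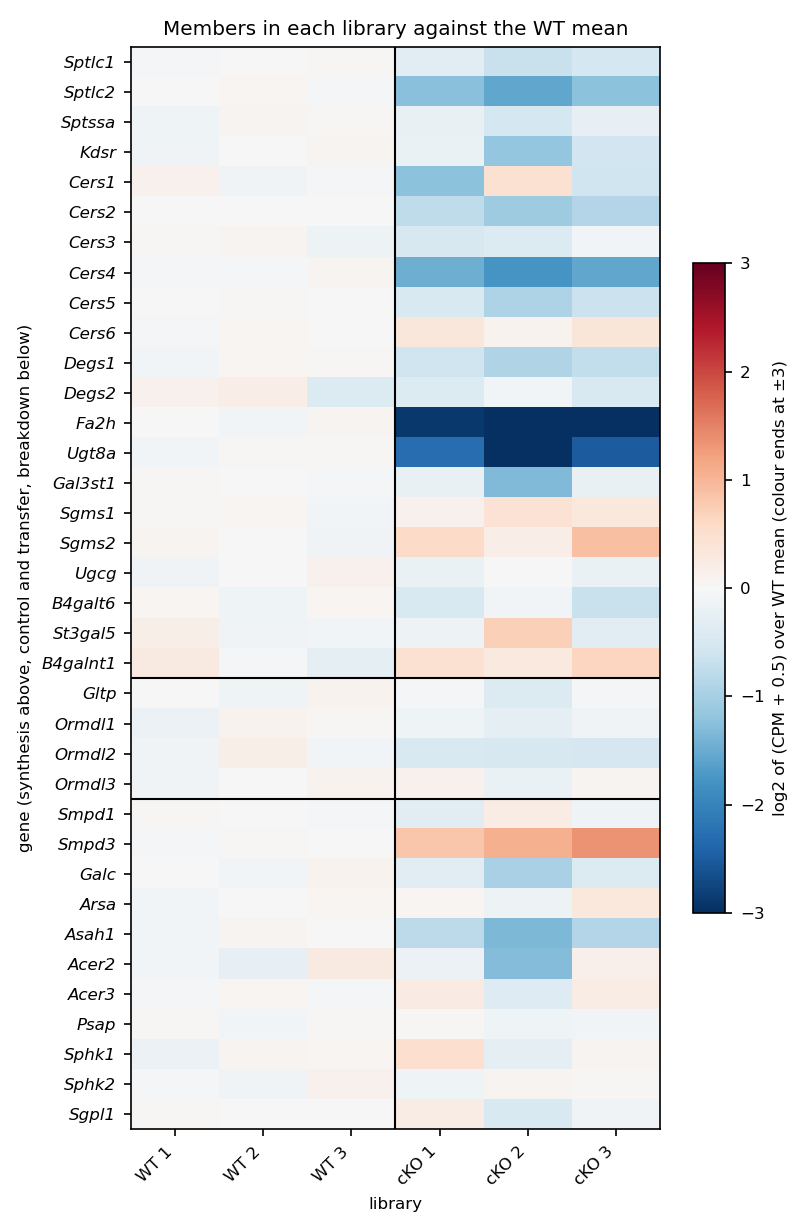
Each tested member (rows) in each library (columns), as the log2 of CPM plus 0.5 over the WT mean. The 3 cKO columns are blue over most synthesis genes. In cKO replicate 2, Cers1 and St3gal5 lie above the other cKO columns. Ugt8a, Gal3st1, Galc, Acer2 and Acer3, among others, lie below them in that library.

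The 2 largest falls among the members were in the galactolipid branch. Fa2h encodes the fatty acid 2-hydroxylase that supplies the hydroxylated acyl chain of myelin galactolipids (ENSMUSG00000033579, GRCm38 chromosome 8, 111345135 to 111393824). It read 209.9, 195.1 and 219.1 in WT against 27.6, 14.2 and 22.6 CPM in cKO. Every cKO library was far below every WT library, and Fa2h fell 9.67-fold, with a mean of 208 ± 12.1 CPM going to 21.5 ± 6.75 CPM (log2 fold change -3.27, 95% interval -3.86 to -2.68, edgeR adjusted p = 0.000819). Ugt8a encodes the transferase that joins galactose to ceramide, the committed step to galactosylceramide (ENSMUSG00000032854, chromosome 3, 125865271 to 125938619). It read 1395, 1496 and 1504 in WT against 300.1, 138.6 and 261.2 CPM in cKO, again without overlap, with the lowest value in cKO replicate 2. Ugt8a fell 6.28-fold, with a mean of 1465 ± 60.7 CPM going to 233.3 ± 84.3 CPM (log2 fold change -2.65, 95% interval -3.34 to -1.97, edgeR adjusted p = 0.00229). Without cKO replicate 2 the log2 fold changes were -3.05 for Fa2h and -2.39 for Ugt8a, both called.

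Gal3st1, which encodes the sulfotransferase that turns galactosylceramide into sulfatide, was not called. It read 222.6, 213.5 and 210.4 in WT against 184.5, 86.5 and 184.8 CPM in cKO. The groups did not overlap, but cKO replicate 2 held less than the other cKO libraries by a wide margin, and the estimate was wide (log2 fold change -0.50, 95% interval -1.19 to 0.19, edgeR adjusted p = 0.258). With that library left out it was called, at -0.22 (adjusted p = 0.0314). Per kilobase of exon, the level of Ugt8a was 2.82, 3.15 and 3.22 times that of Gal3st1 in WT and 0.732, 0.721 and 0.636 times in cKO. On this scale Ugt8a stood above Gal3st1 in all 3 WT libraries and below it in all 3 cKO libraries. In CPM, Ugt8a stayed above Gal3st1 in cKO too, at 300.1, 138.6 and 261.2 against 184.5, 86.5 and 184.8. The order in cKO thus rests on the exonic length of all isoforms together, 4536 bases for Ugt8a and 2041 for Gal3st1. The Schwann lineage markers moved with the branch (6 of 8 lower, sums as given above), as did 7 of 7 myelin protein genes, whose sum was 5.58 to 5.99% of counts in WT and 0.530 to 1.26% in cKO. Their part in these falls was not tested.

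**Figure D3:**
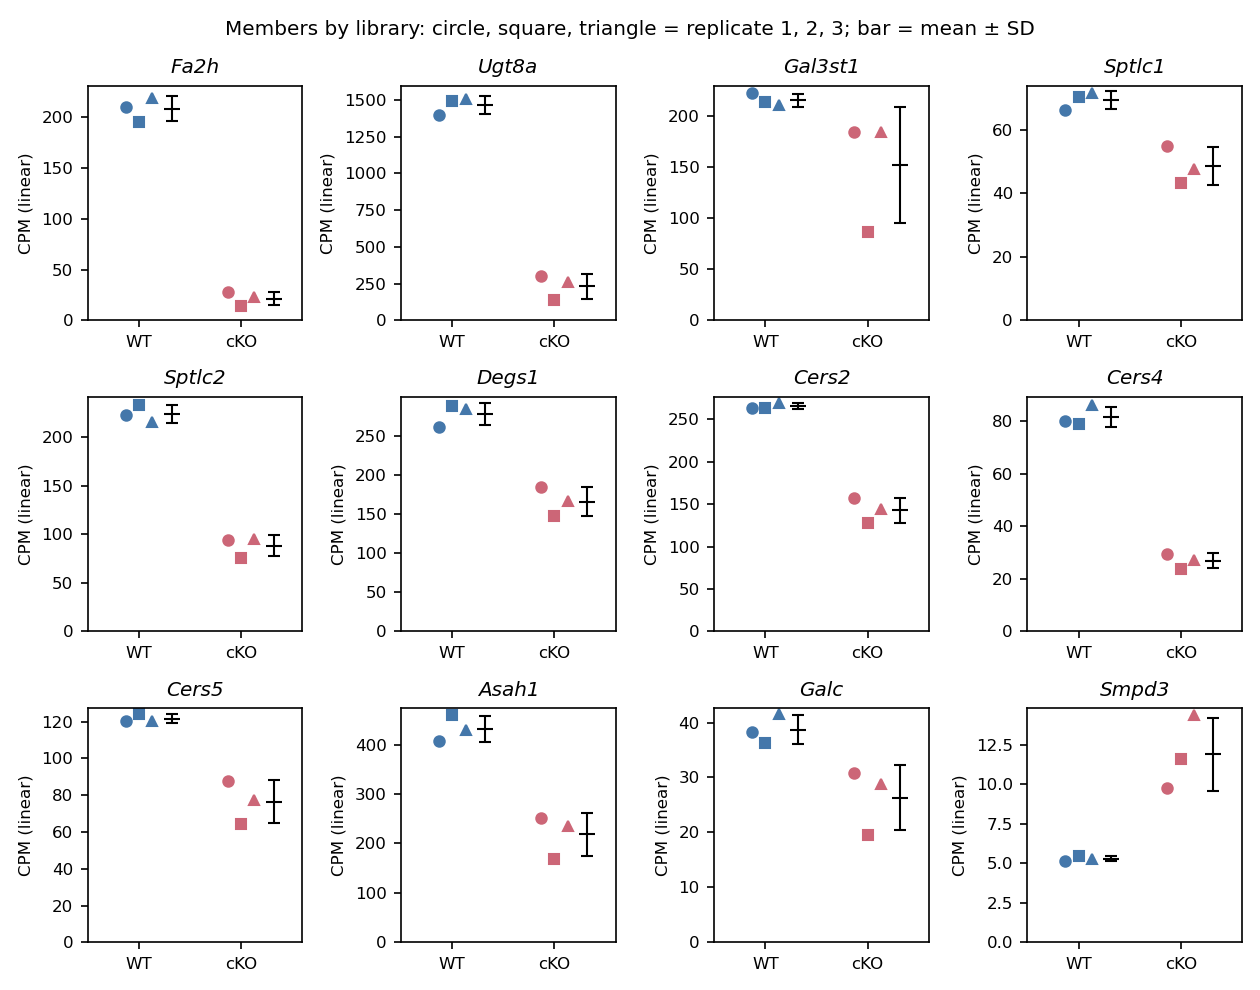
CPM on linear axes for 12 members in the 3 WT (blue) and 3 cKO (red) libraries, with the marker shape giving the replicate number and black bars the mean and SD. Fa2h, Ugt8a and Cers4 show the widest gaps between groups, Gal3st1 and Galc show cKO replicate 2 (square) below the other cKO libraries, and Smpd3 lies higher in cKO.

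Of the genes that make the sphingoid base, both large subunits of serine palmitoyltransferase that were tested fell, with intervals that did not overlap. Sptlc2, the catalytic subunit (ENSMUSG00000021036, chromosome 12, 87305058 to 87388355), read 222.7, 233.4 and 215.1 in WT against 94.2, 75.6 and 94.8 CPM in cKO. It fell 2.54-fold (95% interval of the log2 fold change -1.61 to -1.07, edgeR adjusted p = 0.000987). Sptlc1, its partner, read 66.3, 70.5 and 71.7 in WT against 54.9, 43.2 and 47.8 CPM in cKO, a 1.43-fold fall (log2 fold change -0.52, 95% interval -0.77 to -0.26, edgeR adjusted p = 0.0182). Leaving out any 1 WT library, or cKO replicate 3, ended the Sptlc1 call. By level per kilobase, Sptlc1 made up 41.5 ± 1.5% of the summed Sptlc transcripts in WT and 55.7 ± 1.96% in cKO. In CPM, Sptlc2 stayed above Sptlc1 in every cKO library. The order in cKO thus rests on the exonic length of all isoforms together, 3556 bases for Sptlc1 and 8115 for Sptlc2. Sptlc3, an alternative catalytic subunit, had 3 counts over the 6 libraries and Sptssb, an alternative small subunit, had 12, so neither was tested. Sptssa, the small subunit that activates the enzyme, averaged 161.3 ± 12.4 CPM in WT against 128.5 ± 14.3 in cKO and was not called (log2 fold change -0.33, edgeR adjusted p = 0.089). It was called lower when cKO replicate 2 was left out (-0.24, adjusted p = 0.0366).

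Of the genes for the steps that follow, Degs1 fell. Kdsr, the reductase that acts on the first product, read 42.9, 46.3 and 49.3 in WT against 40.0, 20.4 and 30.7 CPM in cKO, and was not called (log2 fold change -0.60, edgeR adjusted p = 0.12). DESeq2 called it (adjusted p = 0.0484), and so did edgeR once cKO replicate 2 was left out (-0.39, adjusted p = 0.0193). Degs1, the desaturase that completes ceramide (ENSMUSG00000038633, chromosome 1, 182275772 to 182282804), read 261.8, 288.4 and 284.6 in WT against 184.2, 147.8 and 166.4 CPM in cKO. The groups were apart and Degs1 fell 1.68-fold (log2 fold change -0.74, edgeR adjusted p = 0.00579). Degs2, which can also hydroxylate, was rare, at 17 to 37 counts per library (log2 fold change -0.53, edgeR adjusted p = 0.335).

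The ceramide synthases set the length of the acyl chain, and 3 of the 6 fell. Cers2, which prefers very long chains and is the main form of myelinating glia (ENSMUSG00000015714, chromosome 3, 95314791 to 95323599), read 263.0, 263.3 and 269.1 in WT against 156.9, 127.3 and 144.4 CPM in cKO. It fell 1.86-fold (log2 fold change -0.89, 95% interval -1.13 to -0.65, edgeR adjusted p = 0.00239). Cers4 (ENSMUSG00000008206, chromosome 8, 4493026 to 4531680) had the smallest p of the members, with 80.3, 79.1 and 86.2 CPM in WT against 29.5, 23.8 and 27.3 CPM in cKO, a 3.05-fold fall (95% interval of the log2 fold change -1.85 to -1.36, edgeR adjusted p = 0.000413). Cers5, which prefers shorter chains, read 120.1, 124.4 and 120.5 in WT against 87.8, 64.3 and 77.5 CPM in cKO, a 1.59-fold fall (edgeR adjusted p = 0.0119) whose call ended when any 1 WT library was left out.

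Cers6, a synthase of long-chain ceramide, was the tested family member with a positive estimate. It read 24.0, 26.2 and 25.1 in WT against 31.8, 27.2 and 32.5 CPM in cKO, with no overlap, but missed the threshold (log2 fold change 0.28, 95% interval 0.04 to 0.52, edgeR adjusted p = 0.103). It passed once cKO replicate 2 was left out (0.36, adjusted p = 0.00616). Cers1 read 3.58, 2.97 and 3.15 in WT against 1.09, 4.59 and 1.97 CPM in cKO, so its groups overlapped through cKO replicate 2, the library rich in muscle markers. Its log2 fold change was -0.35 (edgeR adjusted p = 0.638), and -1.07 without that library (adjusted p = 0.00475). Of the exonic bases of Cers1, 42.7% are shared with other genes, Gdf1 and Upf1, so its count is uncertain. Cers3 had 8 to 21 counts per library and was not called (-0.65, edgeR adjusted p = 0.236).

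Per kilobase of exon, the summed level of the 6 synthases was 117.2 ± 1.10 CPM per kb in WT and 67.0 ± 7.31 in cKO (SD, n = 3 libraries). Cers2 took 61.6 ± 0.435% of that sum in WT and 58.0 ± 0.318% in cKO, Cers4 5.70 ± 0.228% and 3.27 ± 0.0114%, and Cers6 2.41 ± 0.0923% and 5.14 ± 0.272%. The sum was lower in every cKO library, and the shares of Cers4 and Cers2 were smaller. Those of Cers6 and Cers5 were larger, Cers5 going from 29.3 ± 0.593% in WT to 32.1 ± 1.48% in cKO. The level of Cers2 over that of Cers6 went from 25.5 to 11.3 on average. These shares rest on the exonic length of all isoforms together, which understates genes with long annotated exons such as Cers4.

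**Figure D4:**
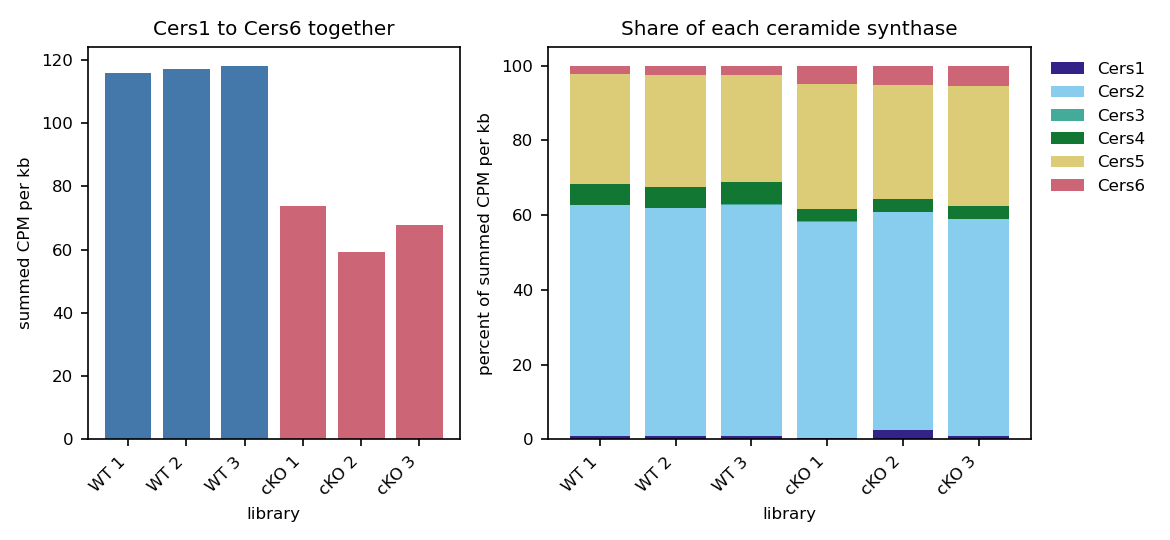
Left, summed level of Cers1 to Cers6 per library in CPM per kb of exon. Right, the share of each gene in that sum in percent. The sum is lower in all 3 cKO libraries (59.3 to 73.9 against 116.0 to 118.2 CPM per kb), and the share of Cers6 is larger in each of them.

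Promoter sequences are shown for 4 of these genes, 3 that fell and 1 that did not. Each is the 250 bases before a RefSeq start (GRCm38.p6), on the strand of the gene, with capitals for matches to CACGTG (the E-box) or, on either strand, to GTGGGCG and GCGTGGGCG (the short and full core of the EGR zinc finger factors, to which Egr2 belongs, the first contained in the second).
Ugt8a, chr3:125938653-125938902, minus strand: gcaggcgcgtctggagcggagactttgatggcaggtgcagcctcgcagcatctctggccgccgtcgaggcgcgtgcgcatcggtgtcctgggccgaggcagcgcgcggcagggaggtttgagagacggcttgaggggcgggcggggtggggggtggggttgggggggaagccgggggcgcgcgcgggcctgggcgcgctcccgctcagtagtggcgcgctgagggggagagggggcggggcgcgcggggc
Cers2, chr3:95314940-95315189, plus strand: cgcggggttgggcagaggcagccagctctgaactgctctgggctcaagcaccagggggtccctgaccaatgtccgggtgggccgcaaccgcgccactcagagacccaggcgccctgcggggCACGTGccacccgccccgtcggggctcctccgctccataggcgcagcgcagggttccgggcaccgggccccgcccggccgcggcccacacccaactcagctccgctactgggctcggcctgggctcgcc
Cers5, chr15:99772516-99772765, minus strand: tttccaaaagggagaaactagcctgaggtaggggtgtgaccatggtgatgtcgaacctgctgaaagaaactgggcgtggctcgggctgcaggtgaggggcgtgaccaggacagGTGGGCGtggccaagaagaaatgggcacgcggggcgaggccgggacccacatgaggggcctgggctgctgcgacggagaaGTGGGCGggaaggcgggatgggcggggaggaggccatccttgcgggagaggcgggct
Cers6, chr2:68861191-68861440, plus strand: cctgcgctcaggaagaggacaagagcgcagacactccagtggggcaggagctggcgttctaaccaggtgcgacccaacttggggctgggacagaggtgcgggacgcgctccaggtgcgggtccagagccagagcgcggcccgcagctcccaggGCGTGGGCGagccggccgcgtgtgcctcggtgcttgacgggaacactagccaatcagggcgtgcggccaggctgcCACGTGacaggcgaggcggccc
Windows were found for 33 of the 38 members, 51 windows in all; Asah1, B4galnt1, B4galt6, Fa2h and Smpd3 had none. On either strand, GTGGGCG was present in 8 of the 51 (15.7%) and in 7.02% of all 32851 windows, and CACGTG in 7 (13.7%) against 6.02%. Of the 8 members with GTGGGCG (Acer2, Acer3, Cers5, Cers6, Degs2, Gltp, Ormdl1 and Sphk2), Cers5 alone was called. Of the 6 with CACGTG (Arsa, Cers2, Cers6, Degs1, Sgms2 and Sphk1), Cers2 and Degs1 alone were called. Overlapping windows of Sphk1 held the same CACGTG site, which was counted in each. The full GCGTGGGCG was present in 1 member window, that of Cers6, which did not fall, and in 0.536% of all windows. The SOX word ACAAAG was in 11.8% of member windows and 16.5% of all. The sterol response word TCACNCCAC and the lysosomal word TCACGTGA, which contains CACGTG, were in 0 member windows, against 1.05% and 0.785% of all. The windows of Ugt8a, Sptlc2 and Cers4, which fell, held none of the words searched. A second window of Cers2, chr3:95318580-95318829, held none either. The part of these words in the falls was not tested.

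Of the 6 genes for sphingomyelin, glucosylceramide and gangliosides, 0 were called by edgeR, while 3 were higher and 1 lower at an unadjusted p below 0.05 and DESeq2 called 1, Sgms2. Sgms1 and Sgms2, the synthases that make sphingomyelin, were both higher in every cKO library than in any WT library, but neither passed the test. Sgms2, the form at the plasma membrane, read 14.2, 13.7 and 12.5 in WT against 20.4, 15.6 and 25.5 CPM in cKO (log2 fold change 0.61, 95% interval 0.18 to 1.03, edgeR adjusted p = 0.0589). DESeq2 called it (adjusted p = 0.0241), as did edgeR in the absence of cKO replicate 2 (0.77, adjusted p = 0.000206). Sgms1, the form of the Golgi, reached 0.30 on the log2 scale (edgeR adjusted p = 0.0879).

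Ugcg, which starts the glucosylceramide branch, read 57.2, 60.7 and 67.1 in WT against 53.7, 61.4 and 53.2 CPM in cKO, with overlapping groups (log2 fold change -0.14, 95% interval -0.37 to 0.10, edgeR adjusted p = 0.36). Ugt8a and Ugcg compete for ceramide, and per kilobase the level of Ugt8a was 28.0, 28.3 and 25.8 times that of Ugcg in WT and 6.42, 2.60 and 5.64 times in cKO. B4galt6, which makes lactosylceramide, had -0.38 (edgeR adjusted p = 0.141), or -0.56 when cKO replicate 2 was left out (adjusted p = 0.000689). St3gal5, which makes the ganglioside GM3, read 57.2 CPM in cKO replicate 2 against 27.6 to 39.2 CPM in all other libraries. Its log2 fold change was 0.15 with that library and -0.25 without it, called in neither. B4galnt1, which extends gangliosides, was low, at 2.13 to 3.40 CPM in WT and 3.45 to 4.51 CPM in cKO (0.55, edgeR adjusted p = 0.131). It was called higher when cKO replicate 2 was left out (0.64, adjusted p = 0.0301), and 20.7% of its exonic bases are shared with Slc26a10.

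Among the inhibitors of serine palmitoyltransferase, Ormdl2 was called and the others were not. Ormdl2 lay between 13 and 16 CPM in the WT libraries and between 9.86 and 10.2 CPM in the cKO libraries, without overlap (log2 fold change -0.50, edgeR adjusted p = 0.0314). Of the 6 fits with 1 library removed, the call was kept in 1 (cKO replicate 2 removed), and 66.7% of its exonic bases overlap Dnajc14, so the count is uncertain. Ormdl3, the form with the highest level per kilobase, read 42.7, 46.4 and 49.6 in WT against 50.3, 40.0 and 48.9 CPM in cKO (0.005, 95% interval -0.27 to 0.28). Its rank above Ormdl2 shares the uncertainty of the Ormdl2 count. Ormdl1 had -0.18 (95% interval -0.45 to 0.09). Gltp, a cytosolic carrier of glycolipids, had -0.17 (95% interval -0.46 to 0.12, edgeR adjusted p = 0.355).

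On the breakdown side, the lysosomal ceramidase Asah1 fell. Asah1 (ENSMUSG00000031591, chromosome 8, 41340197 to 41374773) read 406.6, 459.3 and 429.0 in WT against 252.0, 169.2 and 235.2 CPM in cKO. The groups were apart, and it fell 1.97-fold, with a mean of 431.6 ± 26.5 CPM going to 218.8 ± 43.8 CPM (log2 fold change -0.98, 95% interval -1.36 to -0.60, edgeR adjusted p = 0.00844). The other ceramidases were not called: Acer3 had 0.06 (95% interval -0.35 to 0.46) and Acer2 -0.33 (95% interval -1.30 to 0.63). For Acer2 the estimate was 0.0071 without cKO replicate 2, and for Acer3 it was 0.24 and called (adjusted p = 0.0333).

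Galc encodes the lysosomal galactosylceramidase that is deficient in Krabbe disease, and Arsa the arylsulfatase A that is deficient in metachromatic leukodystrophy. Galc read 38.3, 36.3 and 41.5 in WT against 30.7, 19.5 and 28.8 CPM in cKO. The groups were apart, but it missed the threshold (log2 fold change -0.55, 95% interval -0.97 to -0.14, edgeR adjusted p = 0.0685), while DESeq2 called it (adjusted p = 0.0245), as did the fit without cKO replicate 2 (-0.38, adjusted p = 0.0052). Arsa read 22.8, 24.5 and 25.2 in WT against 25.1, 21.8 and 30.2 CPM in cKO, with overlap (0.09, 95% interval -0.23 to 0.41), and 18.8% of its exonic bases overlap another gene. Per kilobase, Ugt8a stood at 119.4, 135.1 and 118.8 times the level of Galc in WT and at 32, 23.3 and 29.7 times in cKO. The size of these multiples depends on the exonic length of all isoforms together, 14879 bases for Galc and 4536 for Ugt8a. Psap, the precursor of the saposins that present lipids to these enzymes, read 590.2 to 666.6 CPM over all 6 libraries, with overlapping groups (log2 fold change -0.06, 95% interval -0.30 to 0.17, edgeR adjusted p = 0.682).

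Smpd3, the neutral sphingomyelinase that releases ceramide from sphingomyelin, was the 1 member that rose. Smpd3 (ENSMUSG00000031906, chromosome 8, 106252548 to 106337988) read 5.14, 5.48 and 5.31 in WT against 9.78, 11.6 and 14.4 CPM in cKO. Every cKO library was above every WT library, and it rose 2.24-fold, with a mean of 5.31 ± 0.166 CPM going to 11.9 ± 2.31 CPM (95% interval of the log2 fold change 0.77 to 1.56, edgeR adjusted p = 0.0052). Smpd1, the acid sphingomyelinase of the lysosome, was the more abundant transcript and read 51.9, 50.7 and 49.4 in WT against 40.2, 59.5 and 46.2 CPM in cKO (log2 fold change -0.06, 95% interval -0.40 to 0.28). Some markers of cells other than Schwann cells rose alongside Smpd3: 7 of 8 for macrophages, 3 of 8 for fibroblasts and 2 of 6 for neurons. So did 2 of 5 for keratinocytes, 1 of 5 for adipocytes and 0 of 6 for endothelial cells. In each list 0 were called lower, and all were detected in every library. The adipocyte marker that rose was Fabp4, while the median log2 fold change of that list was -1.39, with Plin1 at -1.67 and Cfd at -1.92. The keratinocyte markers that rose, Krt1 and Krt15, had 11 to 61 counts per library. The fibroblast sum was 1.86 to 1.94% of counts in WT and 1.55 to 2.30% in cKO, and the neuron sum 0.00336 to 0.00371% and 0.00368 to 0.00932%. Their part in the rise of Smpd3 was not tested. Per kilobase, Smpd3 took 6.27 ± 0.282% of the pair in WT and 13.7 ± 2.77% in cKO.

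Genes of sphingosine 1-phosphate, a signalling lipid made from the sphingosine that ceramidases release, showed no called change. Sphk2 and Sphk1, the kinases that make it, had -0.002 (95% interval -0.27 to 0.26) and 0.14 (95% interval -0.42 to 0.71), and 21.9% of the exonic bases of Sphk2 overlap other genes. Sgpl1, the lyase that destroys it and so ends the pathway, read 142.1, 138.0 and 139.0 in WT against 163.9, 101.3 and 129.1 CPM in cKO (-0.09, 95% interval -0.48 to 0.31). DESeq2 called 0 of these 3 as well, and 0 had an unadjusted edgeR p below 0.05.

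Ordered by level per kilobase in WT, Ugt8a was the most abundant member at 323.0 ± 13.4 CPM per kb (SD, n = 3), followed by Psap at 236.4 ± 10.3 and Asah1 at 127.3 ± 7.81. Degs1 (107.4 ± 5.57), Sptssa (106.2 ± 8.15) and Gal3st1 (105.6 ± 3.09) came next and did not differ beyond their spread, and Cers2 (72.1 ± 0.934) and Fa2h (69.2 ± 4.03) likewise lay within their spread of each other. In cKO, Psap came first at 226.5 ± 13.3 CPM per kb, ahead of Sptssa (84.6 ± 9.45), Gal3st1 (74.4 ± 27.8), Asah1 (64.5 ± 12.9) and Degs1 (64.1 ± 7.03), and Ugt8a was in place 6 at 51.4 ± 18.6. Fa2h went from place 8 to place 18 of 38. This order, too, rests on the exonic length of all isoforms together, which understates genes with long annotated exons.

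The remaining genes of the pathway, a list of 46 of which 41 were tested, divided into 5 that fell, 7 that rose and 29 not called, and the median of their log2 fold changes was -0.01. The 5 that fell are 12.2% of those tested, near the 10.3% of all genes that fell, while 8.55% of all genes rose. These counts depended on single libraries: 11 fell and 11 rose without cKO replicate 2, 5 and 2 without cKO replicate 1, 2 and 1 without WT replicate 3, and 3 and 1 without WT replicate 1, WT replicate 2 or cKO replicate 3. The share of all genes called moved likewise, from 17.6% lower and 17.8% higher without cKO replicate 2 to 4.09% and 2.36% without WT replicate 3. B3gnt5, which starts the lacto-series glycolipids, read 48.9, 48.8 and 49.9 in WT against 10.8, 19.1 and 9.51 CPM in cKO, a 3.76-fold fall (edgeR adjusted p = 0.00565). Samd8, a relative of the sphingomyelin synthases that makes ceramide phosphoethanolamine, fell 2.24-fold (edgeR adjusted p = 0.00283). Plekha8, which encodes a glucosylceramide carrier (-0.60 on the log2 scale), Smpd2, a neutral sphingomyelinase gene (-0.50), and Cerk, the ceramide kinase gene (-0.50), were the others that fell. The Smpd2 and Cerk calls were each kept in 2 of the 6 fits with a library removed. St3gal2, a sialyltransferase of complex gangliosides, rose 2.34-fold, from 58.3, 57.7 and 54.4 CPM to 144.5, 109.1 and 145.8 CPM (edgeR adjusted p = 0.00177), and A4galt, the synthase of globotriaosylceramide, rose as well (0.62 on the log2 scale, edgeR adjusted p = 0.045), a call kept in 1 of the 6 fits with a library removed.

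Of 15 tested breakdown genes on that list, 5 rose and 1 fell, against 8.55% and 10.3% of all genes. Among those that rose, Hexa, a gene of lysosomal ganglioside breakdown, had a log2 fold change of 0.53, Smpdl3a had 0.51, Smpdl3b 0.72 and the neutral ceramidase gene Asah2 0.41. With 1 library removed at a time, each of these 4 calls was kept in 1 of 6 fits, in which cKO replicate 2 was the library removed. Macrophage markers moved with them: 7 of 8 rose and 0 fell, all were detected in every library, and their sum was 0.0494 to 0.0563% of counts in WT and 0.0733 to 0.115% in cKO. The values for fibroblast and neuron markers stand beside Smpd3 above. The part of these markers in the rise of these genes, or of St3gal2 and A4galt, was not tested. Of 8 genes for the turnover and transport of sphingosine 1-phosphate, 0 were called by edgeR, with 2 lower and 1 higher at an unadjusted p below 0.05, and DESeq2 called 1, lower. Of 4 tested receptors of sphingosine 1-phosphate, 0 were called by edgeR or DESeq2 and 0 had an unadjusted edgeR p below 0.05.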

How the data were processed

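RNA of sciatic nerves was measured in 6 libraries, grouped by their titles. The authors deposited raw fragment counts per gene and the exonic length of each gene. Per the file headers, featureCounts 1.6.1 counted pairs with both ends aligned on Ensembl GRCm38 release 95 exons, at a mapping quality of at least 20, without strand. Reads of overlapping or antisense genes therefore cannot be told apart. Subread 2.0 and DESeq2 1.3 are named too, in the submitters' processing notes. The sources used here do not give the aligner settings.

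Symbols came from GENCODE M21 (54809 of 54838 identifiers matched). Testing used edgeR 4.0.16 in R 4.3.3: filterByExpr (minimum count 10), TMM, robust quasi-likelihood F test, 2-sided, 4 residual degrees of freedom, Benjamini-Hochberg adjustment over 18775 genes, called below 0.05. The code was also run on simulated counts with known changes, drawn independently for each gene. Such counts lack a library that stands apart as cKO replicate 2 does, so they do not test the calls made here. Intervals (95%) derive from the quasi-likelihood statistic. Levels per kilobase are CPM over exonic length. Overlap with other genes was measured on GENCODE exons. Alternatives were RLE factors, DESeq2 1.42.0, no count filter, a replicate block, a muscle covariate and leaving out each library. Libraries of a group differed beyond sampling noise (chi-square over its degrees of freedom, 8.95 to 347.0 for pairs). All 38 members are named; values per library are given for the called ones and relatives, and of the other pathway genes the called ones with the smallest p are named, up to 10. Gal3st1, Galc, Kdsr, Sgms2, Ugcg, St3gal5, Arsa and Sgpl1 were given per library, and Cerk named, after their values were seen. A called gene among the other pathway genes is not reported here. Members and lists were chosen with earlier results of these data known.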

Additional observations from a re-analysis of the deposited data

How the results depend on the processing

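Of the 11 called members, 8 (Sptlc2, Cers2, Cers4, Degs1, Fa2h, Ugt8a, Asah1 and Smpd3) were called in all 6 fits that each lacked 1 library and under all 5 other alternatives; Sptlc1, Cers5 and Ormdl2 were not. With RLE factors every count of called members and other pathway genes was as reported, and 10.2% of all genes were lower and 8.51% higher. DESeq2 and the fit with no count filter each gave 2 members higher, 1 synthesis gene higher and 2 breakdown genes lower, with Ormdl3 at -0.0090 and -0.012. DESeq2 called 4.24% of 54838 genes lower and 3.88% higher, and the fit with no count filter 5.45% and 4.57% of 34828. These shares include genes of low count, so they do not compare directly with those of the main fit. Another fit took as covariate the mean log2 of CPM plus 0.5 over the 10 skeletal muscle markers, scaled across libraries. In it 15 members were lower and 5 higher, 11 synthesis genes lower and 3 higher, and 3 breakdown genes lower and 2 higher. Of the other pathway genes 10 were lower and 11 higher, in a fit that called 16.8% of all genes lower and 16.3% higher. There the median of the breakdown genes was 0.086, St3gal5 was -0.33 (adjusted p = 0.0361), Acer2 0.086 and Sgpl1 0.11. The cause was not tested.

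Same-numbered WT and cKO libraries deviated from their group means with correlations of -0.29, -0.30 and -0.10, so the numbers were not taken to pair them. With the replicate number as a block, 8 members were lower and 1 higher, and of the other pathway genes 3 were lower and 1 higher. That fit called 5.9% of all genes lower and 3.96% higher.

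With each library left out in turn, 7 to 16 members were lower and 1 to 5 higher, and 6 to 13 synthesis genes were lower and 0 to 3 higher. Breakdown genes ranged from 1 to 2 lower and from 1 to 2 higher, and other pathway genes from 2 to 11 lower and from 1 to 11 higher. Over the same fits, 4.09 to 17.6% of all genes were called lower and 2.33 to 17.8% higher. The highest member counts came without cKO replicate 2, as did the highest shares of all genes. The median of the breakdown genes ranged from -0.11 to 0.0071. The log2 fold changes that changed sign ranged from -1.07 to 0.013 for Cers1, -0.25 to 0.34 for St3gal5, -0.059 to 0.099 for Ormdl3, -0.23 to 0.059 for Smpd1, -0.043 to 0.19 for Arsa, -0.68 to 0.0071 for Acer2, -0.053 to 0.24 for Acer3, -0.11 to 0.33 for Sphk1, -0.068 to 0.057 for Sphk2 and -0.28 to 0.067 for Sgpl1. Of these 10 genes, Cers1 and Acer3 passed the threshold in 1 fit each, without cKO replicate 2. Counts of at most 37 per library limit what can be seen for Degs2, Cers3, Sptlc3 and Sptssb.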
